A study of Homo sapiens with 10 samples.

Results

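The genes of major histocompatibility complex (MHC) class I and of its peptide loading were examined after knockdown of the transcription factor SOX4 in DU145, a human cell line grown from a prostate cancer metastasis. The 9 genes are the heavy chain genes HLA-B, HLA-C, HLA-E and HLA-F, the light chain gene B2M, the peptide transporter genes TAP1 and TAP2, the tapasin gene TAPBP and the peptidase gene ERAP1. By RefSeq, 7 of them lie on chromosome 6, B2M on chromosome 15 and ERAP1 on chromosome 5. They were chosen by name, with earlier results of these data known, so shares of members called are descriptive. All 9 have a row among the 13527 features of the deposited table. RNA-seq was measured in 3 libraries of DU145 cells with a short hairpin RNA against SOX4 (shSOX4, genotype SOX4 knockdown) and in 3 libraries of DU145 cells with a control hairpin (shCon, genotype Scramble). The labels give both groups the same serum-containing medium and no treatment. They name neither clones nor pools of transduced cells, and nothing says that replicates were cultured apart; p-values here cover the spread among the 3 libraries of a group, and this spread may be technical. The 4 ATAC-seq samples (Vector and oeSOX4) were not used.

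Class I molecules carry short peptides from inside the cell to its surface, where CD8 T cells inspect them. The proteasome cuts proteins into peptides, the TAP1 and TAP2 transporter moves these into the endoplasmic reticulum, ERAP1 trims them, and tapasin holds the empty heavy chain and B2M at the transporter until a peptide is bound. HLA-B and HLA-C are classical heavy chains that present to T cells and to receptors of natural killer cells, HLA-E presents peptides from the leaders of other class I chains to the receptor NKG2A, and HLA-F is a less studied non-classical chain. Their genes answer interferons, and tumours often lower them. The class I promoters are known to share an interferon response element, an NF-kB site called enhancer A, and a module bound by RFX, CREB and NF-Y together with the coactivator NLRC5.

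Promoters of the members are shown because 5 members moved in one direction and B2M in the other. The sequences are RefSeq reference sequence of build GRCh38.p14, 200 bases that end 1 base before the annotated start, 5′ to 3′ on the gene's strand. Capitals mark, on either strand, the interferon response letters GAAANNGAA, the same elements in the other order (GAANNGAAA), the NF-kB letters GGGANTNCC, the letters TGACG known from the X2 box that CREB binds, and the CCAAT letters that NF-Y binds. The pattern GAANNGAAA was added after the sequences were seen. The stretches lie at chr6:31357180-31357379 (minus strand) for HLA-B, chr6:31272093-31272292 (minus strand) for HLA-C, chr6:29723234-29723433 (plus strand) for HLA-F, chr15:44711317-44711516 (plus strand) for B2M and chr6:32853705-32853904 (minus strand) for TAP1.
HLA-B: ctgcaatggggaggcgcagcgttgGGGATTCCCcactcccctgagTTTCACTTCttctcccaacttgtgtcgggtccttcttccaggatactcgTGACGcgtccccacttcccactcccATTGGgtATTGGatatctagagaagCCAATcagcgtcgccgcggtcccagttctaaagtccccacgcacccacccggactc
HLA-C: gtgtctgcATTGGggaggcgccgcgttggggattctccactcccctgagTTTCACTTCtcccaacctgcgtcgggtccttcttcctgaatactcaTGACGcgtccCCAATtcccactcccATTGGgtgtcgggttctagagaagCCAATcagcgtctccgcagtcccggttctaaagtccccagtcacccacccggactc
HLA-F: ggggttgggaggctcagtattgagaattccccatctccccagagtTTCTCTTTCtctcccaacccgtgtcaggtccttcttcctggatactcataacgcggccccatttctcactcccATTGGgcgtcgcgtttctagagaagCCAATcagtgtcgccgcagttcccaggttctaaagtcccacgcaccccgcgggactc
B2M: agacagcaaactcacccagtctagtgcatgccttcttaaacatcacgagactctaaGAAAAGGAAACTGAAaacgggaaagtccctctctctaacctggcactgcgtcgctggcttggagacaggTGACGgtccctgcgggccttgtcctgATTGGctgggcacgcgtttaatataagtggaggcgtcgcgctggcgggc
TAP1: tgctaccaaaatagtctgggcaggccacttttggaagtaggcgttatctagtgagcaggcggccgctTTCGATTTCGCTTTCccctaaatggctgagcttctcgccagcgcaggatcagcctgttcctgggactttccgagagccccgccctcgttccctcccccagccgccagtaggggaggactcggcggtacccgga

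A promoter window at the gene's own start was at hand for 7 of the 9 members, these and those of TAP2 and TAPBP. HLA-E had no promoter window, and the 2 windows of ERAP1 lay at other starts and were not counted. In the 250 bases before the start, the interferon letters in either order, of which the second was the added one, were found in 7 of the 7 members, and 12.4% of the 35116 promoters of the RefSeq table hold them. In the order GAAANNGAA alone they were in 5 of the 7, against 6.9% of all promoters. The CCAAT letters were in 5 of the 7 and in 32.0% of all, and the X2 letters in 4 of the 7 and in 21.2% of all. The NF-kB letters were in 2 of the 7, HLA-B and TAPBP, and in 3.8% of all. Only this spelling was searched, so its lack in a member does not show that the member has no NF-kB site. The full CREB site TGACGTCA, which contains the X2 letters, was in 0 of the 7 and in 1.6% of all. The SOX letters ACAAAG were in 0 of the 7, where 13.7% of all promoters hold them. Another SOX pattern, ACAATG, was also in 0 of the 7 and in 9.3% of all. Over the 200 bases, HLA-B and HLA-C are identical at 87.7% of aligned positions, HLA-F and HLA-B at 80.8%, and B2M and HLA-B at 46.4%.

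SOX4 itself had 4.55, 6.44 and 6.01 CPM (counts relative to library size, scaled by the TMM method) in shSOX4 libraries 1, 2 and 3, against 12.9, 10.1 and 8.48 in shCon libraries 1, 2 and 3. The groups did not overlap, and the log2 fold change was -0.89 (edgeR adjusted p = 0.0111, SE 0.236), or -0.71 without shCon 1 (edgeR adjusted p = 0.0598). With limma on log2(FPKM + 1) it was -0.48 (adjusted p = 0.0523). Total counts were 31189910 to 34784541 in shSOX4 and 36360205 to 43361609 in shCon. On the second principal component of log2 CPM, with 15.7% of the variance, shSOX4 1 (score 35.7) and shCon 3 (29.3) were far from the rest (-21.1 to -7.58). All 6 epithelial markers had a row, of which KRT8 (4603 CPM in shSOX4 and 1828 CPM in shCon on average) and KRT18 rose, while EPCAM (log2 fold change -0.83, edgeR adjusted p = 0.0279) and CDH1 (-1.28, edgeR adjusted p = 0.0029) fell. The median log2 fold change of these 6 was -0.17, and KRT7 and KRT19 did not pass. Of 8 leukocyte markers, 2 had a row, CD14 and CD68, and their summed level was 46.3 to 56.5 CPM in shSOX4 against 97.4 to 116 CPM in shCon, nearly all of it CD68. Of 6 fibroblast markers 3 had a row and rose, with a summed level of 9.55 to 16 CPM in shSOX4 against 1.69 to 2.48 CPM in shCon. CDH5 alone of 4 endothelial markers had a row, at 4.7 to 6.62 CPM in shSOX4 against 0.525 to 0.942 CPM in shCon. The part of these marker changes in the class I values was not tested, and in bulk RNA fewer cells of a type and less RNA per cell cannot be told apart.

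After SOX4 knockdown the class I genes did not move as a block: several heavy chain and loading genes fell, and the gene of the common light chain rose. Of the 9 members 5 fell (HLA-C, HLA-E, HLA-F, TAP2 and TAPBP), B2M rose, and 3 (HLA-B, TAP1 and ERAP1) did not pass, so 6 of 9 were called at an edgeR adjusted p under 0.05, where 32.8% of all features were. In their own directions, 15.8% of features were called lower in shSOX4 and 17.0% higher. All 3 shSOX4 values lay below all 3 shCon values in 7 members, as in 23.9% of features, and above them in 1 member, as in 23.1%. Either kind of separation was seen in 47.0% of features. The median log2 fold change of the members was -0.43, and that of all features -0.01. Changes were moderate, from -0.90 to 0.45, and no member passed a test against a 1.5-fold change. With 1 library left out the number called was 2 without shSOX4 2, shSOX4 3 or shCon 3, 3 without shCon 1 or shCon 2, and 5 without shSOX4 1. HLA-E and HLA-F were called in each of these 6 fits.

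**Figure D1:**
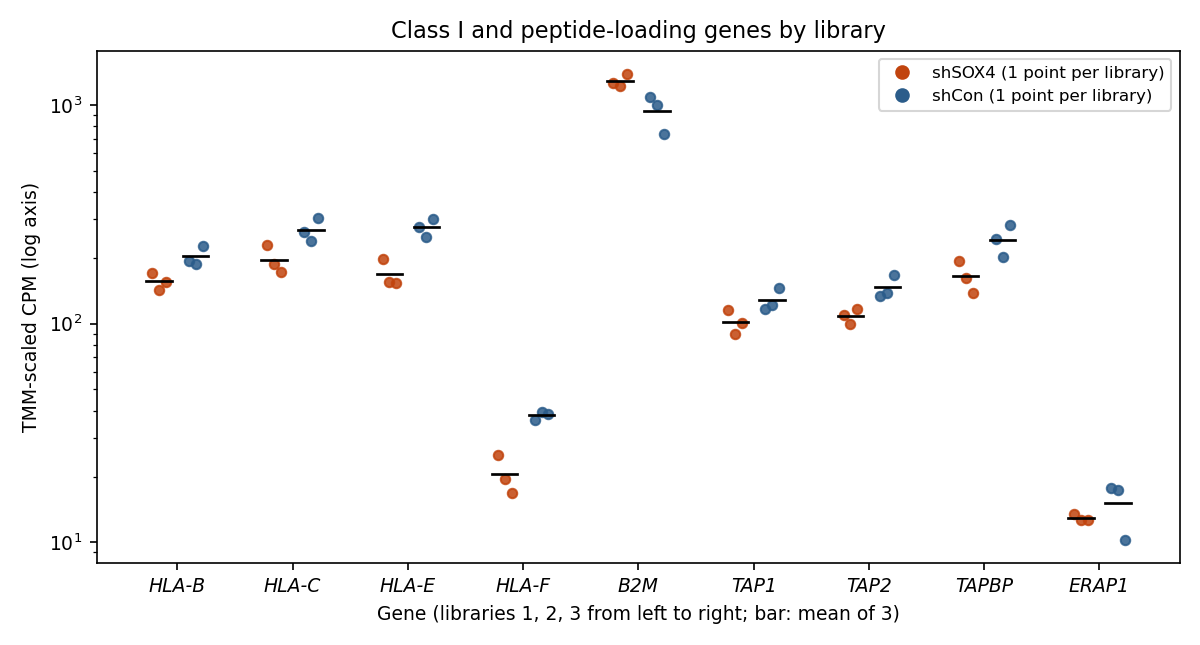
TMM-scaled CPM on a log axis for the 9 genes, 1 point per library (libraries 1 to 3 from left to right) and a bar for the mean of 3, with shSOX4 left of shCon. In HLA-B, HLA-C, HLA-E, HLA-F, TAP1, TAP2 and TAPBP every shSOX4 point lies below every shCon point, in B2M every shSOX4 point lies above, and in ERAP1 the groups overlap.

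Among the heavy chains the non-classical genes HLA-F and HLA-E had the fold changes furthest from 0. HLA-F (ENSG00000204642) had 25.1, 19.5 and 16.9 CPM in shSOX4 1, 2 and 3, against 36.3, 39.4 and 38.6 CPM in shCon 1, 2 and 3. The shCon libraries were close together, and shSOX4 1 was the highest of its group while still below each of them. HLA-F averaged 20.5 ± 4.18 CPM in shSOX4 and 38.1 ± 1.6 CPM in shCon (SD, n = 3 each), and its fitted log2 fold change was -0.90 (95% interval -1.31 to -0.48, SE 0.193, edgeR adjusted p = 0.00345). With 1 library left out its fold change stayed between -1.06 and -0.77. HLA-F overlaps the antisense gene HLA-F-AS1 and a ribosomal protein pseudogene in RefSeq, and the strand setting of the counting was not stated, so reads of these genes cannot be told apart.

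HLA-E (ENSG00000204592), the ligand of NKG2A, had 198, 155 and 154 CPM in shSOX4 1, 2 and 3, against 277, 249 and 300 CPM in shCon 1, 2 and 3. Again shSOX4 1 was the highest of its group, and the groups did not overlap. It averaged 169 ± 25.4 CPM in shSOX4 and 275 ± 25.4 CPM in shCon (SD, n = 3 each), so shSOX4 held 61.5% of the shCon level, with a log2 fold change of -0.70 (95% interval -1.05 to -0.35, SE 0.164, edgeR adjusted p = 0.00554). With 1 library left out it was -0.82 to -0.63.

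The classical heavy chains HLA-C and HLA-B had fold changes nearer 0. HLA-C (ENSG00000204525) had 228, 187 and 173 CPM in shSOX4 1, 2 and 3, against 262, 239 and 305 CPM in shCon 1, 2 and 3. The highest shSOX4 value came close to the lowest shCon value. HLA-C fell by 0.46 on the log2 scale (95% interval -0.81 to -0.10, SE 0.167, edgeR adjusted p = 0.0485). The call is at the edge of the threshold: the adjusted p was 0.0638 to 0.177 without shSOX4 2, shSOX4 3, shCon 1, shCon 2 or shCon 3, with fold changes of -0.53 to -0.35 (edgeR). HLA-B (ENSG00000234745) had 171, 142 and 155 CPM in shSOX4 1, 2 and 3, against 194, 187 and 227 CPM in shCon 1, 2 and 3. The groups did not overlap, yet the log2 fold change of -0.38 (SE 0.157, 95% interval -0.72 to -0.04) missed the threshold (edgeR adjusted p = 0.0776). HLA-B passed without both libraries that stand apart, shCon 3 and shSOX4 1 (-0.36, adjusted p = 0.0378, edgeR), and with total-count scaling (-0.38, adjusted p = 0.0408, edgeR).

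Because class I heavy chain genes are close copies, the way reads were divided between them is uncertain. The counts of the 4 HLA members were therefore also summed to 1 feature, whose value does not depend on the division among these 4, although reads shared with other class I genes still could enter or leave it. The sum was 623, 503 and 498 CPM in shSOX4 1, 2 and 3, against 769, 714 and 871 CPM in shCon 1, 2 and 3. It averaged 541 ± 70.4 CPM in shSOX4 and 785 ± 79.5 CPM in shCon (SD, n = 3 each), and its log2 fold change was -0.54 (edgeR adjusted p = 0.0179, SE 0.156). Without shSOX4 2 the value was -0.49 (edgeR adjusted p = 0.0897), and without shSOX4 3 it was -0.47 (edgeR adjusted p = 0.0817).

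Within that sum, on the per-length scale of FPKM (fragments per kilobase of transcript, scaled to library size), HLA-E made up 21.7%, 20.7% and 20.9% in shSOX4 1, 2 and 3, against 24.8%, 23.7% and 23.7% in shCon 1, 2 and 3. HLA-F made up 4.43% to 5.22% in shSOX4, against 5.76% to 7.78% in shCon. HLA-B made up 31.4% to 35.3% in shSOX4, against 29.3% to 30.1% in shCon. For these 3 genes the groups did not overlap, with the smallest p that an exact two-sided permutation test of 3 against 3 libraries can give (0.1, and 0.133 adjusted over the 8 ratios and sums compared this way). HLA-C made up 39.4% to 42.2% in shSOX4 and 38.6% to 40.4% in shCon, and these ranges overlap. The log2 difference of the HLA-B share, 0.14, was 0.09 without shSOX4 3.

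B2M (ENSG00000166710), the light chain that every class I heavy chain needs to reach the surface, had 1254, 1215 and 1383 CPM in shSOX4 1, 2 and 3, against 1086, 995 and 736 CPM in shCon 1, 2 and 3. All shSOX4 values were above all shCon values, and shCon 3 was far below the others of its group. B2M averaged 1284 ± 87.8 CPM in shSOX4 and 939 ± 182 CPM in shCon (SD, n = 3 each) and rose by 0.45 on the log2 scale (95% interval 0.10 to 0.80, SE 0.164, edgeR adjusted p = 0.0471). The size rests in part on shCon 3, without which the fold change was 0.30 (edgeR adjusted p = 0.103). The call was also lost without shSOX4 2 (0.49, adjusted p = 0.0906), shSOX4 3 (0.40, adjusted p = 0.152) or shCon 2 (0.49, adjusted p = 0.0897, edgeR), and held without both shCon 3 and shSOX4 1.

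The ratio of the chains within a library does not depend on library scaling, but it cannot tell a rise of B2M from a fall of the heavy chains. Per length, B2M stood at 3.77, 4.45 and 5.14 times the summed HLA-B, HLA-C, HLA-E and HLA-F in shSOX4 1, 2 and 3, against 2.67, 2.61 and 1.59 times in shCon 1, 2 and 3. The ratio averaged 4.45 ± 0.686 in shSOX4 and 2.29 ± 0.605 in shCon (SD, n = 3 each), a difference of 0.99 on the log2 scale. The groups did not overlap, and the exact two-sided permutation p was 0.1, the smallest these group sizes allow (0.133 adjusted over 8). Every shSOX4 library had more B2M FPKM and less summed HLA FPKM than every shCon library. The ratio therefore had to separate, and its p adds no support of its own. Without shCon 3, the library with the lowest ratio, the difference was 0.74, and over all fits with 1 library left out it was 0.74 to 1.12.

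**Figure D2:**
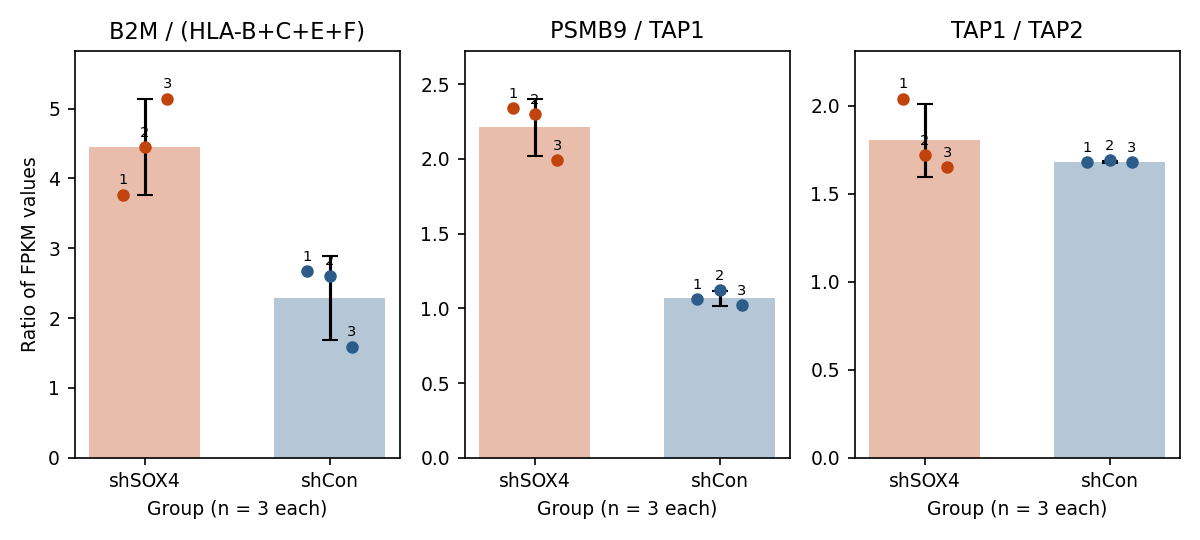
Ratios of FPKM values within each library for B2M over the 4 summed HLA genes, PSMB9 over TAP1, and TAP1 over TAP2, with 1 numbered point per library, bars for the mean and error bars for the SD (n = 3 each), shSOX4 left of shCon. The first ratio lies at 3.77 or above in shSOX4 and at 2.67 or below in shCon, the second at 1.99 or above in shSOX4 and at 1.12 or below in shCon, and the third overlaps between the groups.

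Of the loading complex TAPBP and TAP2 fell, and TAP1 did not pass. TAPBP (ENSG00000231925), the tapasin gene, had 193, 162 and 138 CPM in shSOX4 1, 2 and 3, against 244, 201 and 281 CPM in shCon 1, 2 and 3. The highest shSOX4 value was just below the lowest shCon value. TAPBP fell by 0.55 on the log2 scale (95% interval -0.93 to -0.17, SE 0.178, edgeR adjusted p = 0.0284). Its call was lost without shSOX4 2 (-0.54, adjusted p = 0.101), shSOX4 3 (-0.43, adjusted p = 0.127), shCon 1 (-0.55, adjusted p = 0.0562) or shCon 3 (-0.43, adjusted p = 0.0678, edgeR). In RefSeq it overlaps the coding gene RGL2, which also has a row.

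TAP2 (ENSG00000204267), a subunit of the peptide transporter, had 109, 100 and 116 CPM in shSOX4 1, 2 and 3, against 134, 138 and 167 CPM in shCon 1, 2 and 3. The groups were apart, with shCon 3 the highest library. TAP2 fell by 0.43 (95% interval -0.77 to -0.10, SE 0.158, edgeR adjusted p = 0.0478), a call lost in all 6 fits that left out 1 library (fold changes of -0.49 to -0.33, adjusted p of 0.0556 to 0.203, edgeR). TAP1 (ENSG00000168394), the other subunit, had 115, 90.1 and 101 CPM in shSOX4 1, 2 and 3, against 117, 122 and 146 CPM in shCon 1, 2 and 3. The groups were only just apart, and the fold change of -0.33 (SE 0.165, 95% interval -0.68 to 0.03) did not pass (edgeR adjusted p = 0.14). Per length, the TAP1 to TAP2 ratio was 1.8 ± 0.208 in shSOX4 and 1.68 ± 0.00836 in shCon (SD, n = 3 each), with an exact two-sided permutation p of 0.6. The log2 difference of 0.09 rests on shSOX4 1, without which it was -0.00. A p that misses the threshold does not show that the subunits moved alike.

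ERAP1 (ENSG00000164307), the trimming peptidase, was the least expressed member. It had 13.5, 12.7 and 12.7 CPM in shSOX4 1, 2 and 3, against 17.8, 17.3 and 10.3 CPM in shCon 1, 2 and 3. The shSOX4 libraries lay between the low shCon 3 and the other shCon libraries. The log2 fold change was -0.22 (95% interval -0.70 to 0.26, SE 0.225, edgeR adjusted p = 0.47), and -0.43 without shCon 3, but -0.09 without shCon 1 (edgeR adjusted p = 0.818) and -0.12 without shCon 2 (edgeR adjusted p = 0.779). Without both shCon 3 and shSOX4 1 it was -0.46 and passed (edgeR adjusted p = 0.0433). ERAP1 overlaps CAST and ERAP2 in RefSeq, and both have a row.

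**Figure D3:**
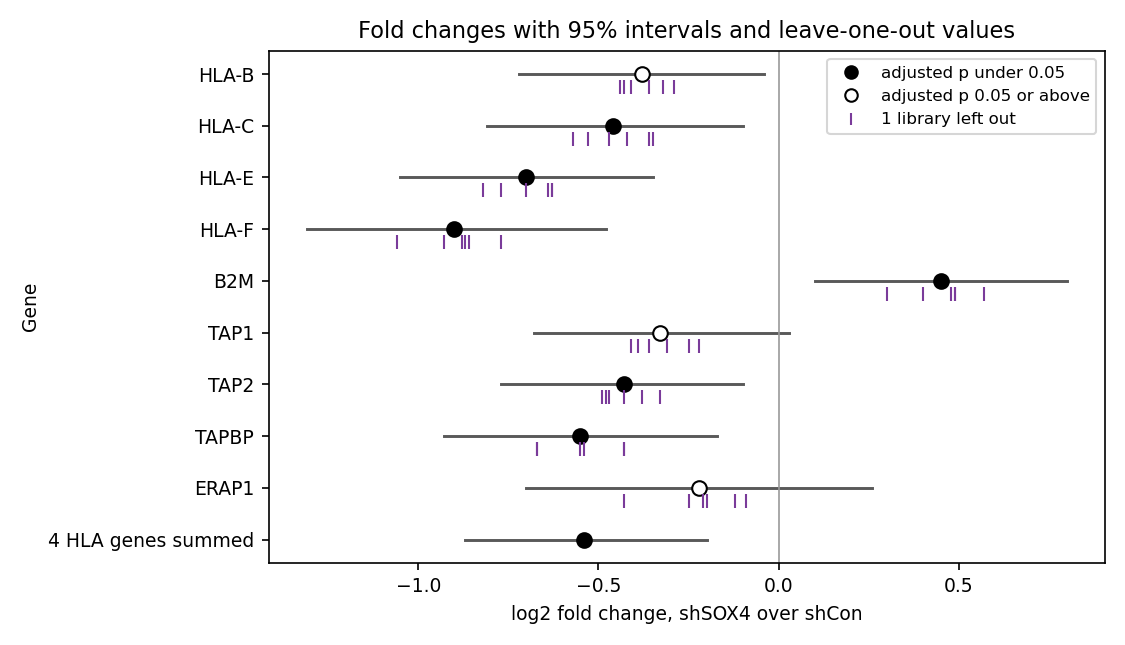
Log2 fold changes, shSOX4 over shCon, of the 9 genes and of the 4 summed HLA genes, with 95% intervals (lines), filled circles at an edgeR adjusted p under 0.05 and open circles above it. Vertical ticks under each of the 9 genes give the 6 values with 1 library left out: B2M stays above 0 (0.30 to 0.57), and HLA-F (-1.06 to -0.77) and HLA-E (-0.82 to -0.63) lie furthest below.

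In shCon 3 and shSOX4 1, the libraries that stand apart, most heavy chain and loading genes were high for their group. In shSOX4 1 the log2 level less the mean of the other shSOX4 libraries was 0.47 for HLA-F, 0.37 for TAPBP and 0.36 for HLA-E. It was 0.35 for HLA-C, 0.27 for TAP1 and 0.20 for HLA-B, but 0.09 for ERAP1, 0.01 for TAP2 and -0.05 for B2M. In shCon 3 the same difference was 0.34 for TAPBP, 0.29 for HLA-C, TAP1 and TAP2, 0.25 for HLA-B and 0.19 for HLA-E. For HLA-F it was only 0.03, and it was -0.50 for B2M and -0.76 for ERAP1. Within the shCon group B2M and the classical heavy chains thus differed in opposite directions in this library. Without both libraries the summed HLA members had a fold change of -0.56 (edgeR adjusted p = 0.00189).

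Compared per length, the order of the members was nearly the same in both groups. B2M was the highest, with 1267 ± 59.6 FPKM in shSOX4 and 929 ± 229 FPKM in shCon (SD, n = 3 each), place 85 of 13527 features in shSOX4 and 99 in shCon by mean FPKM. HLA-C followed with 119 ± 17.1 FPKM in shSOX4 and 162 ± 11.5 FPKM in shCon, then HLA-B with 94.2 ± 6.25 and 121 ± 5.95 FPKM, HLA-E with 60.8 ± 8.25 and 98.2 ± 6.02 FPKM, and TAPBP with 43.7 ± 9.11 and 62.8 ± 8.74 FPKM, each in shSOX4 first and shCon second. These neighbours did not overlap in either group. TAP1 had 32.3 ± 3.12 FPKM in shSOX4, where its range overlapped that of TAPBP, and 40.2 ± 2.28 FPKM in shCon, where it did not. TAP2 averaged 17.9 ± 0.966 FPKM in shSOX4, above HLA-F at 13.8 ± 2.02 FPKM with no overlap. In shCon TAP2 averaged 23.9 ± 1.34 FPKM and HLA-F 26.5 ± 3.07 FPKM, and their ranges overlapped. ERAP1 was lowest, at 2.4 ± 0.151 FPKM in shSOX4 and 2.93 ± 0.956 FPKM in shCon.

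The deposited counts and FPKM of a gene should keep 1 ratio apart from a factor per library. Only 48.4% of all features kept this ratio within 5% between libraries, so larger spreads were common in the table. This ratio varied by at most 2.37% between libraries for HLA-B, HLA-C, HLA-E, B2M, TAP1 and TAP2, but by 9.3% for TAPBP, 13.3% for ERAP1 and 20% for HLA-F. The log2 fold change of HLA-F was nonetheless -0.90 with limma on log2(FPKM + 1) as well (adjusted p = 0.00334). In the authors' deposited table the same 6 members pass an adjusted p of 0.05, with log2 fold changes of -0.85 for HLA-F, -0.67 for HLA-E, -0.52 for TAPBP, -0.43 for HLA-C, -0.42 for TAP2 and 0.44 for B2M.

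Genes of peptide production, the step before loading, rose where they were called. Among 5 genes of the immunoproteasome, the interferon-inducible proteasome form that favours class I peptides, and of its activator PA28, 3 rose and 0 fell, where 17.0% of all features were called higher and 15.8% lower, with a median log2 fold change of 0.62 against -0.01 over all features. PSME2, a PA28 subunit, had 141, 133 and 146 CPM in shSOX4 1, 2 and 3, against 82.1, 84.4 and 80.3 CPM in shCon 1, 2 and 3, and rose by 0.76 (edgeR adjusted p = 0.00196, SE 0.151). The catalytic subunit PSMB9 had 71.3, 54.8 and 53.3 CPM in shSOX4 against 33, 36.1 and 39.5 CPM in shCon and rose by 0.73 (edgeR adjusted p = 0.00854, SE 0.183). PSMB8, another catalytic subunit, rose by 0.62 (edgeR adjusted p = 0.0127, SE 0.169). None of these groups overlapped, and the 3 calls held with any 1 library left out. PSMB10 had a value of -0.07 (adjusted p = 0.801) and PSME1 of 0.26 (edgeR adjusted p = 0.225).

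PSMB9 is the coding neighbour of TAP1 in RefSeq, and the pair is known to be transcribed in opposite directions from a shared promoter. The TAP1 stretch shown above is only the 200 bases before the TAP1 start, and the PSMB9 start was not placed relative to it. Per length, PSMB9 stood at 2.34, 2.3 and 1.99 times TAP1 in shSOX4 1, 2 and 3, against 1.06, 1.12 and 1.02 times in shCon 1, 2 and 3. The ratio averaged 2.21 ± 0.192 in shSOX4 and 1.07 ± 0.0476 in shCon (SD, n = 3 each), a log2 difference of 1.05 that was 1.00 to 1.12 with 1 library left out. The exact two-sided permutation p was again 0.1, the smallest possible (0.133 adjusted over 8). Every shSOX4 library already had more PSMB9 CPM and less TAP1 CPM than every shCon library, so this p adds no support of its own. This pair was chosen after its values were seen. TAP1 overlaps the non-coding gene PSMB8-AS1 in RefSeq, so reads of the overlap are uncertain.

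Of the chaperones that work beside tapasin none was called lower. Of 7 loading partners 1 rose and 0 fell, a share near the 17.0% of all features called higher. That was CANX, the chaperone that first holds new heavy chains. It had 289, 426 and 426 CPM in shSOX4 1, 2 and 3, against 298, 254 and 182 CPM in shCon 1, 2 and 3, and rose by 0.64 (edgeR adjusted p = 0.0275, SE 0.204). Its shSOX4 1 value lay within the shCon range, and the call was lost without shSOX4 2 (0.55, adjusted p = 0.116), shSOX4 3 (0.56, adjusted p = 0.105) or shCon 3 (0.47, adjusted p = 0.0637, edgeR). Of 7 other peptidases that trim or destroy peptides, 2 rose and 0 fell (17.0% and 15.8% of all features). TPP2, a cytosolic peptidase, rose by 1.03 (adjusted p = 0.011), and LNPEP, a membrane-bound peptidase of endosomal vesicles, by 0.96 (edgeR adjusted p = 0.00981), and both calls were lost without shSOX4 2 (0.81 with adjusted p = 0.0772, and 0.69 with adjusted p = 0.077, edgeR).

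Among 13 factors that act on class I promoters 1 rose and 0 fell (median 0.01), where 17.0% of all features were called higher and 15.8% lower. The one that rose was NLRC5, the class I coactivator, with 10.4, 10.1 and 9.85 CPM in shSOX4 1, 2 and 3, against 4.97, 6.88 and 5.86 CPM in shCon 1, 2 and 3. The groups were well apart, and NLRC5 rose by 0.78 (edgeR adjusted p = 0.0132, SE 0.214), or 0.67 without shCon 1 (edgeR adjusted p = 0.0603). The NF-kB subunit RELA had 136, 108 and 107 CPM in shSOX4 against 143, 146 and 197 CPM in shCon, a value of -0.47 that narrowly missed the threshold (edgeR adjusted p = 0.055), and IRF1 had a value of -0.35 (edgeR adjusted p = 0.145). The count of the list turned to 0 higher and 1 lower without shCon 1, and was 2 higher and 1 lower without shSOX4 1 and also without both shCon 3 and shSOX4 1. With total-count scaling, DESeq2, the filter of 1 CPM in every library of a group, the robust fit or without newGene loci, 1 factor was called lower.

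Of 11 measured genes of interferon signalling 5 fell and 0 rose (median -0.03), where 15.8% of all features were called lower and 17.0% higher. IRF9, the DNA-binding part of the type I interferon factor, had 0.997, 1.05 and 3.07 CPM in shSOX4 1, 2 and 3, against 6.92, 7.39 and 3.32 CPM in shCon 1, 2 and 3, a log2 fold change of -1.78 (edgeR adjusted p = 0.00635, SE 0.426). The third library of each group was close to that of the other. The receptor chain IFNAR2 had 24.4, 27.4 and 28.3 CPM in shSOX4 against 56.8, 53.8 and 46.4 CPM in shCon and fell by 0.97 (edgeR adjusted p = 0.0011, SE 0.176). STAT2, the partner of IRF9, fell by 0.68 (edgeR adjusted p = 0.0127), a call lost without shSOX4 2 (-0.69, adjusted p = 0.0555) or shSOX4 3 (-0.55, adjusted p = 0.0684, edgeR). IFNGR2, a chain of the interferon gamma receptor, fell by 0.56 (edgeR adjusted p = 0.0185), but not without shSOX4 2, shSOX4 3, shCon 1 or shCon 2 (-0.57 to -0.49, adjusted p of 0.0548 to 0.0882, edgeR). The number of these genes that fell was 2 without shSOX4 2 and 2 without shSOX4 3, and 1 was called higher without shSOX4 1 and 1 without shSOX4 3.

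Genes that act on class I after its assembly or on its chromatin gave few calls. Of 7 genes of class I turnover 2 fell and 0 rose, where 15.8% of all features were called lower and 17.0% higher. MARCHF9 and MARCHF4, ubiquitin ligases known to lower surface class I, fell by 0.92 (adjusted p = 0.0077) and 0.69 (edgeR adjusted p = 0.0138). MARCHF4 did not pass without shSOX4 2 (-0.60, adjusted p = 0.089, edgeR). None of 3 subunits of PRC2, a Polycomb complex known to silence class I genes in some tumours, was called, with values of 0.46 to 0.51, of which EED was at the edge (edgeR adjusted p = 0.0508). Unadjusted, 2 of the 3 had an edgeR p under 0.05, which was common among all features. HLA-B, with an unadjusted edgeR p of 0.03, ranked only 5234 of 13527 features by p. With DESeq2 and with 5 other settings, 1 PRC2 subunit was called higher.

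**Figure D4:**
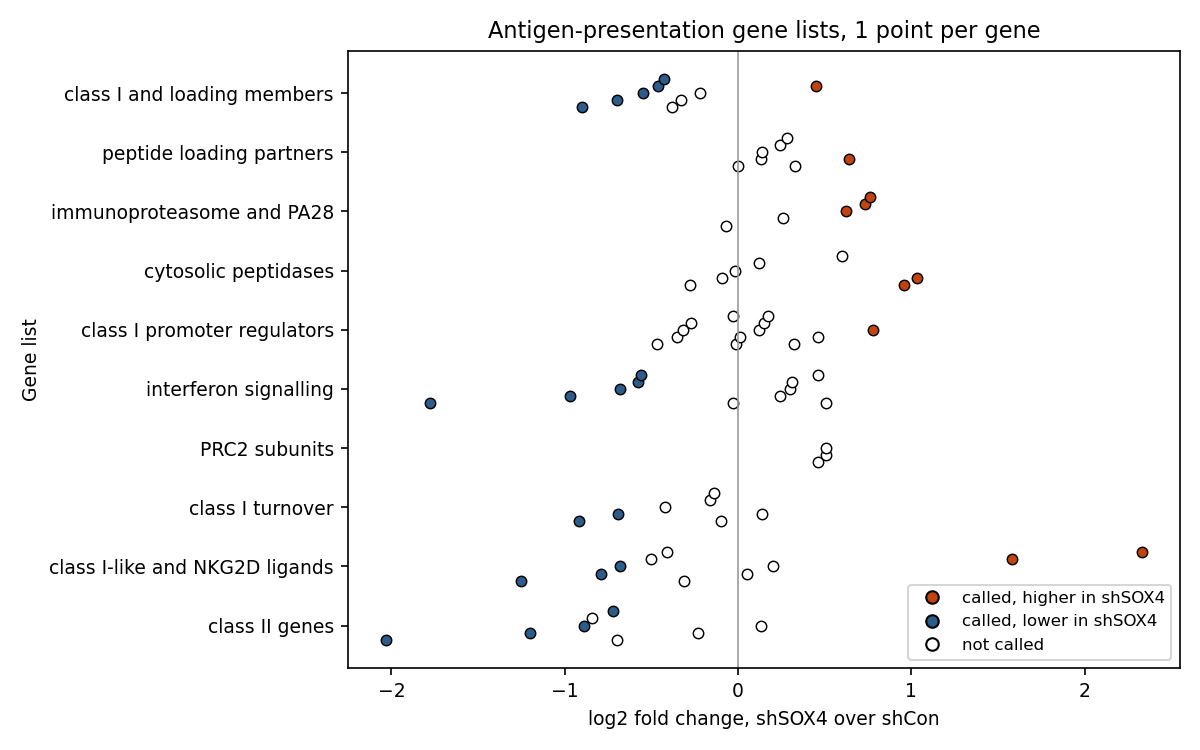
Log2 fold changes, shSOX4 over shCon, of the 9 members (top) and of the measured genes of 9 lists of the class I and class II pathways, 1 point per gene, coloured where the edgeR adjusted p was under 0.05. Among the members, the called heavy chain and loading genes lie left of 0 and B2M right of it. CANX, the only called gene of the loading partners list, lies at 0.64, and the 3 called immunoproteasome and PA28 genes lie between 0.62 and 0.76.

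The genes whose profile over the 6 libraries was most like that of B2M were sought by the root mean square difference of log2 CPM after each gene's own mean was taken away. The 5 nearest were NUF2, a kinetochore protein gene (0.0495), SHLD2, a shieldin subunit gene (0.0513), the kinase gene VRK1 (0.0575), TMEM106B, a lysosomal membrane protein gene (0.0579), and the galectin-like gene LGALSL (0.0582). NUF2 had 15.9, 15.8 and 16.4 CPM in shSOX4 1, 2 and 3, against 13.3, 12.1 and 9.53 CPM in shCon 1, 2 and 3. All 5 share the low value in shCon 3, and none passed the edgeR threshold itself (adjusted p of 0.0576 to 0.176), while DESeq2 called SHLD2 and LGALSL, and limma on log2(FPKM + 1) called TMEM106B (0.63, adjusted p = 0.042).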

How the data were processed

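RNA-seq of 6 DU145 libraries was read from 1 deposited table, whose columns NC and SH with the numbers 1 to 3 were taken as shCon and shSOX4. Raw counts per feature were deposited, per the file headers. FPKM, the authors' own length-scaled and depth-scaled unit, stands beside them per the file headers. The authors' adjusted p-value and the authors' log2 fold change are given per the file headers, without a named tool. For the whole series the submitters' processing notes list build hg19 and, with no roles, deepTools 2.07, MACS2 2.1.1, Bowtie2, STAR and HISAT2. The labels describe more than 1 poly-A library kit without tying a kit to a library, and no source used here names the counting program or its strand setting. The table held only features with at least 1 CPM in at least 3 libraries. Of the features, 12386 had an identifier with a current symbol, and 22 symbols turned into dates were restored.

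Counts were tested with edgeR 4.0.16 in R 4.3.3 (TMM, filterByExpr, which removed 0 features, quasi-likelihood F test, two-sided, group as the only term, Benjamini-Hochberg over 13527 features, called at 0.05). Levels are TMM-scaled CPM, and 95% intervals come from the fit's error. The edgeR step was tested on simulated data with fold changes larger than those of the members, so that test does not cover changes of their size. The members and lists were chosen with earlier results of these data known. Named genes are the members, SOX4, up to 4 called genes per list by adjusted p and the 5 genes most like B2M. Added after their values were seen were IRF1, RELA, EED, PSMB10, PSME1, CIITA, MICA, MICB, ULBP1, ULBP2, ULBP3 and MR1. HLA-DPA1, HLA-DOB, HLA-DMB, the pair of PSMB9 and TAP1 and the marker genes named were also added after their values were seen. Levels between genes were compared as FPKM, ratios by an exact permutation test over libraries. Alternatives were RLE and total-count scaling, other filters, DESeq2 1.42.0, limma 3.58.1 (voom, or log2(FPKM + 1) where FPKM averaged 1 or more), a replicate block, robust dispersions, no newGene loci, a 1.5-fold threshold, and libraries left out. Promoters came from RefSeq's GRCh38.p14 table. Libraries within a group differed far beyond counting noise (chi-square over its degrees of freedom 28.8 to 139), so none was a duplicate. Some genes of the lists are not reported here.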

Additional observations from a re-analysis of the deposited data

How the results depend on the processing

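Under the alternatives run, no log2 fold change of a member, of SOX4 or of the summed HLA members changed direction. The same held for the up to 4 called genes per list and the 5 genes most like B2M. Fold changes of the other named genes were not followed under the alternatives. The count of class I promoter regulators, 1 up and 0 down, turned to 0 up and 1 down without shCon 1. The log2 difference of the TAP1 to TAP2 ratio was 0.09 with all libraries, -0.00 to 0.15 with 1 left out, and -0.00 when shSOX4 1 and shCon 3 were dropped together. The other ratios and the HLA shares, with libraries left out only, kept their direction. Of the 9 members, HLA-E and HLA-F lost their call only in the test against a 1.5-fold change (adjusted p = 0.399 and 0.136), and TAP1 was called in none of 19 alternatives. HLA-C was not called in 9 of 18 alternatives, B2M in 8 of 19, TAP2 in 12 of 19 and TAPBP in 7 of 19. With RLE scaling 3 members were called down, and with total-count scaling 0 were called up. With limma on log2(FPKM + 1), 2 members were called, 0 up and 2 down, and 1514 features were called up. In the test against a 1.5-fold change 1195 features were called (782 up, 413 down), 0 members in either direction, and among list genes 2 up and 4 down. Without shCon 3 and shSOX4 1 together, 14 list genes were called up, against 9. Leaving out 1 library gave 2509 to 4966 features called (1411 to 2653 up, 1098 to 2313 down), 2 to 5 members (0 to 1 up, 2 to 4 down), 6 to 13 list genes up and 9 to 14 down, with the lowest counts without shSOX4 2. The summed HLA members had a log2 fold change of -0.64 to -0.45 in these fits.

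With the replicate number as a block, 2 members were called, 0 up and 2 down, and the summed HLA members had -0.54 (adjusted p = 0.0516, edgeR). The numbers share no stated culture, and same-numbered libraries had correlations of deviations of -0.29, 0.16 and -0.29, so they were not read as pairs. With 3 libraries a group, fold changes near 0.45 on the log2 scale were at the limit of the test. The causes were not tested.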

Other observations

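Genes of MHC class II, which presents peptides of outside origin and is usually kept to immune cells, were in part lower in shSOX4. Of 12 listed genes 8 had a row, of which 4 fell and 0 rose, where 15.8% of all features were called lower and 17.0% higher. HLA-DPA1 (-0.84, adjusted p = 0.0675), HLA-DOB (-0.70, adjusted p = 0.267) and HLA-DMB (-0.23, adjusted p = 0.419, edgeR) did not pass. HLA-DQB1 had 2.61, 1.89 and 2.32 CPM in shSOX4 1, 2 and 3, against 9.4, 9.38 and 9.18 CPM in shCon 1, 2 and 3, a log2 fold change of -2.03 (edgeR adjusted p = 2.91e-05, SE 0.238). CD74, the invariant chain, had 8.57, 6.44 and 5.21 CPM in shSOX4 against 15.7, 11.3 and 19.4 CPM in shCon and fell by 1.20 (edgeR adjusted p = 0.00293). HLA-DRB1 fell by 0.89 (edgeR adjusted p = 0.00425), and its reads may be shared with close copies. HLA-DMA, a peptide editor, fell by 0.72 (edgeR adjusted p = 0.0278), a call lost without shSOX4 3 (-0.49, adjusted p = 0.123) or shCon 2 (-0.72, adjusted p = 0.0624, edgeR). CIITA, the class II coactivator, stood at 1.41 to 2.44 CPM in shSOX4 and 1.55 to 1.88 CPM in shCon (edgeR adjusted p = 0.797).

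Of 10 measured class I-like genes 2 rose and 3 fell (1 fell without shCon 2), where 17.0% of all features were called higher and 15.8% lower. RAET1E and RAET1G, ligands of the activating receptor NKG2D, rose by 2.33 (adjusted p = 4.78e-05) and 1.58 (edgeR adjusted p = 0.000286). RAET1E had 7.19, 7.58 and 8.66 CPM in shSOX4 1, 2 and 3, against 2.1, 1.1 and 1.43 CPM in shCon 1, 2 and 3. None of the other measured NKG2D ligand genes was called higher. ULBP1 fell by 0.79 (edgeR adjusted p = 0.0433), though its groups overlapped. MICA (0.05, adjusted p = 0.837), MICB (-0.31, adjusted p = 0.175), ULBP2 (-0.50, adjusted p = 0.198) and ULBP3 (-0.41, adjusted p = 0.451, edgeR) did not pass. FCGRT, the heavy chain of the neonatal Fc receptor, which also pairs with B2M, had 29.8, 21.4 and 17.3 CPM in shSOX4 against 54.7, 43.6 and 64.5 CPM in shCon and fell by 1.25 (edgeR adjusted p = 0.00107, SE 0.225). HFE, an iron-sensing chain that pairs with B2M too, fell by 0.68 (edgeR adjusted p = 0.0146), but not without shSOX4 2 (-0.59, adjusted p = 0.0948) or shCon 2 (-0.59, adjusted p = 0.0801, edgeR). MR1, a further partner of B2M, had a value of 0.20 (edgeR adjusted p = 0.478).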
